A study of Arabidopsis thaliana with 16 samples.

Results

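The genes described here are CHI (AT2G43570), PRX52 (AT5G05340), OSM34 (AT4G11650) and ADPG1 (AT3G57510) of Arabidopsis thaliana, 4 of the 13286 genes with a probe set of their own. Each was read by 1 probe set, a group of probes for the same transcript, of the 22746 that belong to genes. All 4 passed the filter on low values, a log2 level of at least 4 on at least 3 arrays, that kept 13701. They were picked from these same data for a lower level with estradiol in seedlings carrying an empty inducible vector. The empty-vector differences are therefore a description with no test, and tests were run only in the silencing lines and between days in those lines. Those tests are not wholly free of the choice, since the statistic that ordered the genes used the spread among the arrays of the lines.

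The study grew transgenic seedlings in the Col-0 background and measured total RNA of whole seedlings on 16 single-colour Affymetrix ATH1 arrays. The groups were amiR-tor lines with estradiol (lines 9, 17 and 20, 3 arrays a day), the same lines without it (3 arrays a day), the pER8 empty vector with estradiol (1 array a day) and the empty vector without it (1 array a day). At 2 weeks of age seedlings went onto medium holding 20 µM estradiol or none, and they were harvested 6 or 3 days later. In the amiR-tor lines it switches on an artificial microRNA against the TOR kinase. All plants carried an inducible transgene and were germinated on hygromycin in continuous light. Each amiR-tor line counts as 1 replicate in a group, so the p-values rest on how far the 3 lines differed within groups. The fit has no line term, so over both days the days of a line count as separate replicates. The test between lines takes the days as repeats. The labels do not say that the lines were grown apart. The title of the series names another gene, and sample titles gave the groups. No probe set was listed for TOR, so the silencing itself was not checked.

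Plants meet microbes and wounding with secreted proteins that act in the cell wall. Chitinases cut chitin, a polymer of fungal walls, and osmotin-like proteins belong to the pathogenesis-related family of thaumatin-like proteins, known for antifungal activity and for accumulation under osmotic stress. Class III peroxidases are secreted haem enzymes that can cross-link wall phenolics, and PRX52 is known for a part in lignin formation. Polygalacturonases cut the pectin backbone, and ADPG1 is known for cell separation in fruit opening. The estradiol system of pER8 uses a hybrid transcription factor that is itself present in the empty vector. With 1 empty-vector array per condition, effects of estradiol, of that factor and of the single sample cannot be told apart.

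By their control probe sets the arrays fell into 2 kinds, which no label mentions. The log2 signal of a 25S ribosomal RNA control was 5.27 to 6.66 on 6 of them, against 11.38 to 11.99 on the rest, and a 5′ minus 3′ actin control, a measure of RNA quality, was -10.39 to -4.47 on those 6 and -1.92 to -1.43 on the other 10. Those 6 were line 9 with estradiol on either day, and lines 17 and 20 at 3 days under both treatments. All 4 empty-vector arrays were of the high 25S kind, so the differences that chose the genes lie within 1 kind. Both pairs of line 9 cross the kinds, whereas each estradiol pair of lines 17 and 20 lies within 1. Where arrays of a group differ in kind, line 9 is of one kind and lines 17 and 20 of the other. In the fit of group means a covariate for the kind therefore rests on line 9 against those lines. Array medians lay within 5.6 to 5.68.

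With estradiol the empty vector had the lowest levels of ADPG1 in the series, while without it the empty vector had the highest levels of CHI and 2 of the 3 highest of PRX52. PRX52 read 6.49 with estradiol and 8.50 without it at 6 days, and 6.18 with and 8.15 without at 3 days (log2 level, 1 array each). CHI read 9.63 with and 10.79 without at 6 days, and 8.82 with and 10.53 without at 3 days. These 2 genes had in common that both untreated empty-vector arrays stood high, for CHI above every other array and for PRX52 parted only by line 9 without estradiol at 6 days, while the estradiol arrays lay among those of the lines.

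ADPG1 showed the other arrangement. Its level was 5.08 with estradiol and 6.59 without at 6 days, and 5.35 with and 6.53 without at 3 days. The untreated values lay within the range of the 12 amiR-tor arrays, 6.45 to 7.85, and both estradiol values lay below it. Both estradiol arrays of the empty vector were the lowest of the series for 99 of the 13701 kept probe sets (0.723%), and both untreated ones the highest for 53 (0.387%). OSM34 read 12.07 with and 13.58 without estradiol at 6 days, and the untreated array was the highest of the 16. At 3 days it read 12.05 with and 12.35 without, a difference of -0.30 that is small beside the -1.51 at 6 days. In such bulk samples fewer cells that express a gene and less RNA per cell cannot be told apart.

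**Figure D1:**
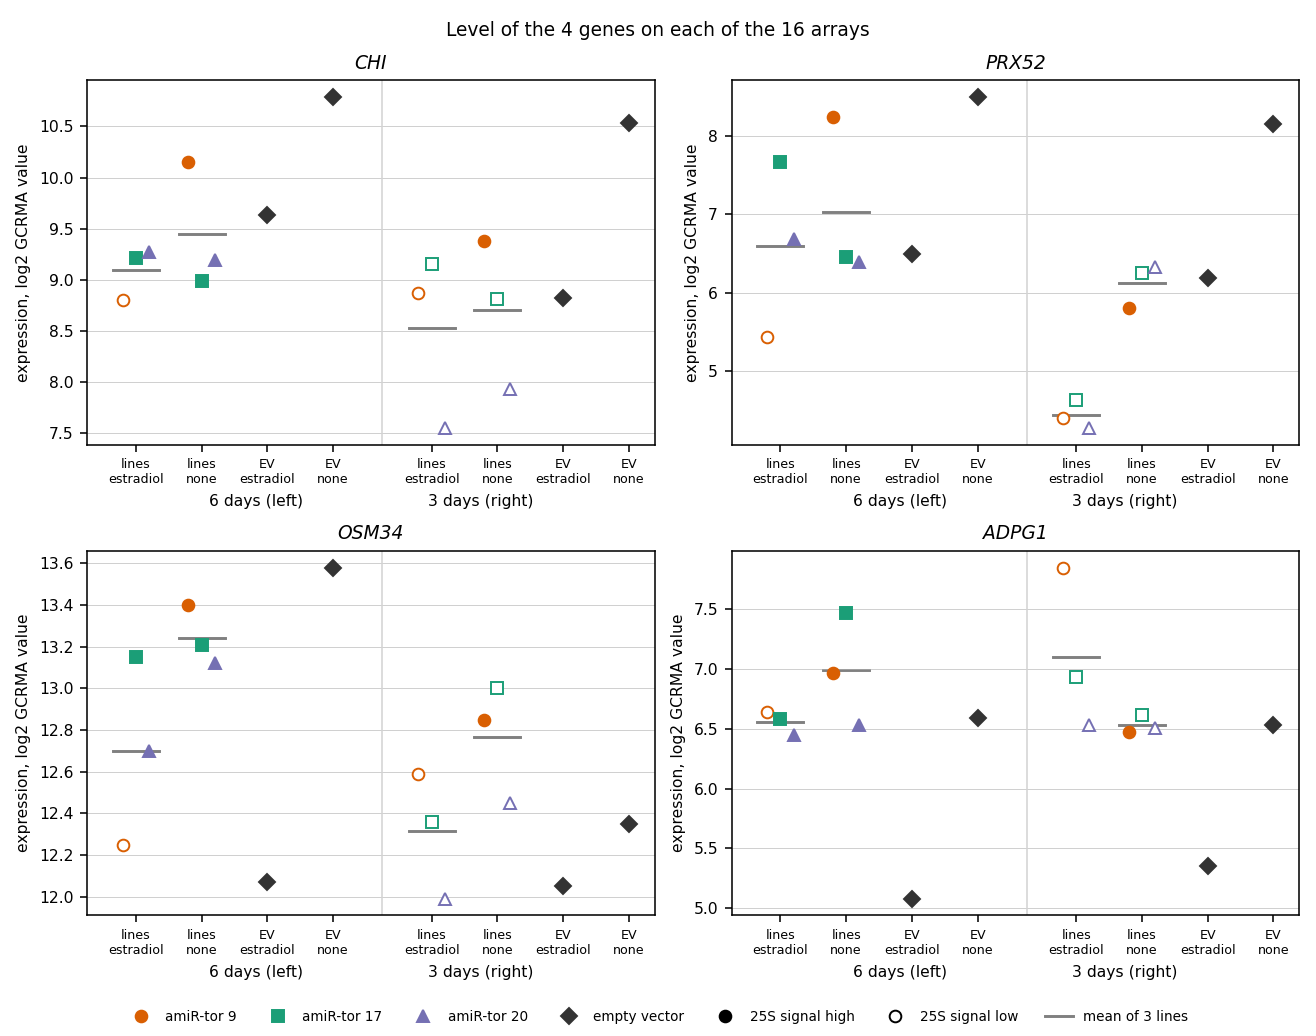
Expression level (log2 GCRMA value, y axis) of the 4 genes on each array, at 6 days (left of each panel) and 3 days (right), with estradiol left of no estradiol. Symbols mark the genotype, open symbols the arrays with low 25S signal and grey bars the mean of 3 lines. CHI and PRX52 stood highest in the untreated empty vector (up to 10.79 and 8.50), and ADPG1 lowest in the treated one (5.08 and 5.35).

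Averaged over both days, estradiol minus none in the empty vector was -1.99 for PRX52 (3.97-fold lower), -1.44 for CHI (2.70-fold lower), -1.35 for ADPG1 (2.54-fold lower) and -0.91 for OSM34 (1.87-fold lower) on the log2 scale. Over all kept probe sets 64 had a mean difference of -1 or lower (0.467%), and 16 were lower by at least 1 on both days (0.117%), PRX52, CHI and ADPG1 among them. These counts say how the genes were chosen and nothing more, since this contrast chose them. Ordered by the moderated limma statistic among the 1066 kept probe sets with a gene symbol, ADPG1, OSM34, PRX52 and CHI took the first 4 places downward. CHI, the last inside, was at -1.44. Just outside stood HSA32 (AT4G21320), a heat-stress gene, at -0.37, then JRG21 (AT3G55970) at -1.40 and ChiC (AT4G19810), a chitinase, at -0.52. With 1 empty-vector array per condition, the spread in that statistic comes from the amiR-tor arrays. It thus favoured genes of small spread there, and the tests in the lines use the same spread. OSM34, at place 2 by the statistic, was at place 80 by size among all kept probe sets.

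**Figure D2:**
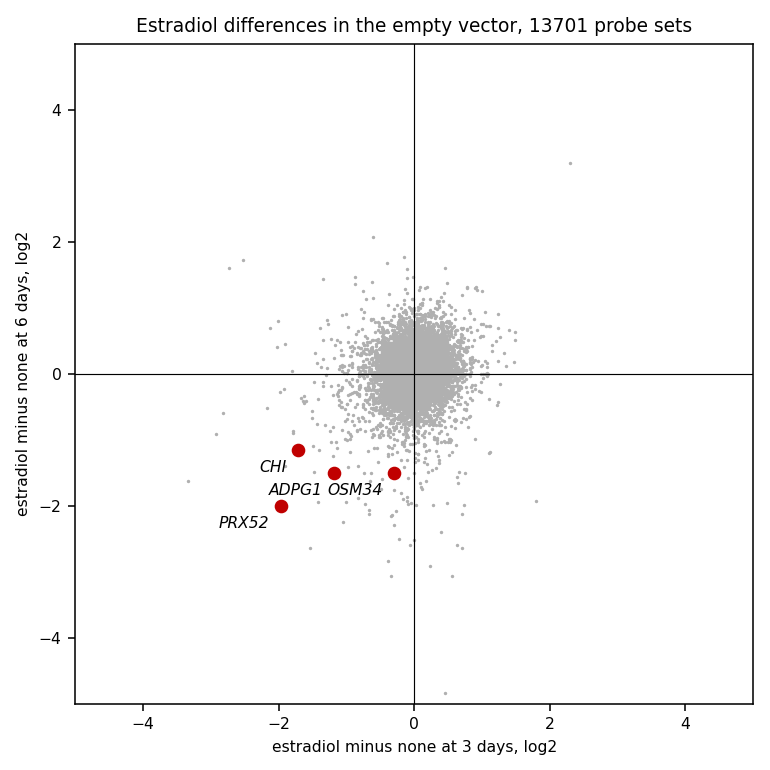
Estradiol minus none in the empty vector on the log2 scale, at 3 days (x axis) and 6 days (y axis), for 13701 kept probe sets (grey) and the 4 genes (red). PRX52, CHI and ADPG1 were lower by more than 1 on both days, and OSM34 lay at -0.30 and -1.51.

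In the amiR-tor lines PRX52, the wall peroxidase, had its lowest levels of the series after 3 days of estradiol. The level was 4.40, 4.63 and 4.27 in lines 9, 17 and 20 with estradiol, against 5.80, 6.25 and 6.33 without it. All 3 treated arrays were below all 3 untreated ones, an arrangement found downward in 979 of 13701 kept probe sets (7.15%). The group means were 4.43 ± 0.18 with and 6.13 ± 0.29 without (SD, n = 3 each), a difference of -1.69 ± 0.56 (SE) that did not pass the threshold (limma, Benjamini-Hochberg adjusted p = 0.363; unadjusted p = 0.0121). No probe set passed at 3 days (0%), and 13% had an unadjusted p under 0.05.

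At 3 days PRX52 was lower with estradiol in each line. The difference was -1.40 in line 9, -1.62 in line 17 and -2.06 in line 20. It was -1.97 in the empty vector, the contrast that chose the gene. The pair of line 20 was alike in its actin control, at -4.52 with estradiol and -4.65 without, whereas in line 17 that control was -8.58 with and -4.47 without. In line 9, whose pair crosses the kinds of array, it was -10.39 with and -1.86 without. On the 6 arrays of low 25S signal alone, a choice made after seeing the data, the 3 day difference of PRX52 was -1.86. There lines 9, 17 and 20 with estradiol were set against lines 17 and 20 without it, so line 9 had no untreated partner.

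At 6 days the lines no longer went one way. PRX52 read 5.43 in line 9, 7.67 in line 17 and 6.68 in line 20 with estradiol, against 8.24, 6.46 and 6.39 without. The difference was -2.81 in line 9, where the kind of array also changed, but 1.21 and 0.29 in lines 17 and 20, and -2.01 in the empty vector. The mean difference in the lines was -0.44 ± 0.56 (SE; limma adjusted p = 0.741), and without line 9 it was 0.75 ± 0.31 (SE; limma adjusted p = 0.373). On the 10 arrays of high 25S signal it was 0.15 ± 0.68 (SE). There lines 17 and 20 with estradiol were set against lines 9, 17 and 20 without it, so line 9 had no treated partner. Over both days the mean difference in the lines was -1.07 ± 0.40 (SE; limma adjusted p = 0.135), with 4 of 6 pairs lower, and -0.55 ± 0.22 without line 9 (limma adjusted p = 0.298).

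CHI, the chitinase-family gene, had no common direction in the lines. With estradiol at 6 days it read 8.80, 9.21 and 9.27 in lines 9, 17 and 20, against 10.15, 8.99 and 9.19 without. At 3 days it read 8.87, 9.15 and 7.55 with estradiol, against 9.38, 8.81 and 7.93 without. The groups overlapped on both days, and line 20 had the lowest values of the series at 3 days under both treatments. Estradiol minus none was lower in 3 of 6 pairs, both of line 9 among them. The mean difference was -0.35 ± 0.47 at 6 days and -0.18 ± 0.47 at 3 days (SE; limma adjusted p = 0.754 and 0.872). Over both days it was -0.27 ± 0.33, and 0.065 ± 0.37 without line 9 (SE), so its sign rests on the line whose pairs cross the kinds of array. CHI in the empty vector differed by -1.16 at 6 days and -1.71 at 3 days.

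OSM34, the osmotin-like gene, was lower with estradiol in all 6 pairs of the lines, by less than in the empty vector at 6 days. At 6 days it read 12.25, 13.15 and 12.70 in lines 9, 17 and 20 with estradiol, against 13.40, 13.21 and 13.12 without. At 3 days it read 12.59, 12.36 and 11.99 with estradiol, against 12.85, 13.00 and 12.45 without. The groups overlapped on both days, at 6 days only because line 17 with estradiol, at 13.15, lay just above line 20 without it, at 13.12. Being lower in all 6 pairs was shared with 980 of 13701 kept probe sets (7.15%).

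The mean difference of OSM34 was -0.54 ± 0.25 at 6 days and -0.45 ± 0.25 at 3 days (SE; limma adjusted p = 0.35 and 0.419). Without line 9, whose pairs cross the kinds of array, the 6 day value was -0.24 ± 0.25 (SE). Over both days it was -0.50 ± 0.17 (SE; limma adjusted p = 0.119; unadjusted p = 0.0153). It did not pass the threshold, which 86 of 13701 probe sets passed downward (0.628%), and 26.4% had an unadjusted p under 0.05. Without line 9 it was -0.40 ± 0.18 (SE; limma adjusted p = 0.333), lower in 4 of 4 pairs, as were 13.1% of kept probe sets. In the empty vector the differences were -1.51 at 6 days and -0.30 at 3 days, and the 3 day one was within the range of the lines, -0.64 to -0.26.

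ADPG1, the polygalacturonase, differed in sign between the days in the lines. At 6 days it read 6.64, 6.58 and 6.45 in lines 9, 17 and 20 with estradiol, against 6.97, 7.47 and 6.53 without, and each line was lower. At 3 days it read 7.85, 6.93 and 6.53 with estradiol, against 6.47, 6.62 and 6.51 without, and each line was higher, in line 20 by 0.02. The treated and untreated groups overlapped on both days. At 6 days the groups of none of the 4 genes parted, as those of 6.5% of kept probe sets did downward. The mean difference was -0.43 ± 0.31 at 6 days and 0.57 ± 0.31 at 3 days (SE; limma adjusted p = 0.541 and 0.422), and 0.07 ± 0.22 over both days (limma adjusted p = 0.864).

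The high 3 day value of line 9 with estradiol, 7.85, came from the array with the lowest actin control, -10.39. Without line 9 the 3 day difference was 0.17 ± 0.31 and that over both days -0.16 ± 0.22 (SE). The part of RNA quality in these values was not tested. No amiR-tor array reached down to the 5.08 and 5.35 of the treated empty vector.

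**Figure D3:**
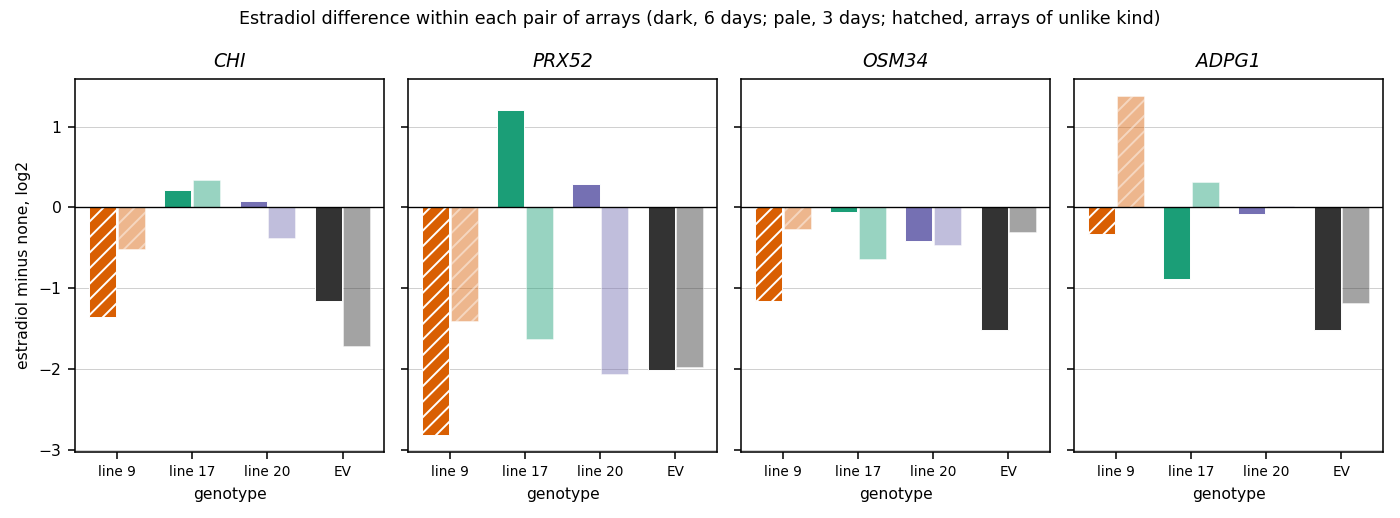
Estradiol minus none on the log2 scale (y axis) within each pair of arrays, by genotype (x axis), at 6 days (dark) and 3 days (pale), with pairs of unlike 25S kind hatched. All 6 bars of OSM34 in the lines lie below 0, and PRX52 at 3 days lies between -2.06 and -1.40 in the lines. CHI and, at 6 days, PRX52 differ in sign among the lines, and ADPG1 differs in sign between the days in every line. The empty-vector bars are the contrast that chose the genes.

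None of the 4 genes passed in any contrast of the lines, against 63 of 13701 probe sets at 6 days (0.46%) and 390 over both days (2.85%). At 6 days 54 of them were higher (0.394%) and 9 lower (0.0657%), over both days 304 were higher (2.22%), and 14.1% had an unadjusted p under 0.05 at 6 days. Missing the threshold does not show that the genes stayed level. Set side by side over both days, PRX52 was at -1.07 in the lines and -1.99 in the empty vector, CHI at -0.27 and -1.44, OSM34 at -0.50 and -0.91, and ADPG1 at 0.07 and -1.35. All 4 values were lower in the empty vector. That ordering follows partly from the choice of the genes on the empty vector and was not tested.

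Lines 9, 17 and 20 did not differ past the threshold in the estradiol effect on any of the 4 genes. The F test of the line terms on the 12 amiR-tor arrays gave limma adjusted p = 0.466 for CHI, 0.512 for PRX52, 0.827 for OSM34 and 0.675 for ADPG1. No probe set passed (0%) with limma, while 2722 had an unadjusted p under 0.05 (19.9%).

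Without estradiol the lines held less CHI than the empty vector on every array. The 3 lines read 8.99 to 10.15 at 6 days and 7.93 to 9.38 at 3 days, against 10.79 and 10.53 in the empty vector. For PRX52 the untreated lines read 6.39 to 8.24 at 6 days and 5.80 to 6.33 at 3 days, against 8.50 and 8.15, again with every line lower. Only line 9 at 6 days, at 8.24, came near the empty vector. OSM34 in the untreated lines was 13.12 to 13.40 at 6 days, below the 13.58 of the empty vector, and 12.45 to 13.00 at 3 days, above its 12.35. ADPG1 in the untreated lines, 6.53 to 7.47 and 6.47 to 6.62, bracketed the empty vector at 6.59 and 6.53. Since the choice of the genes used the empty-vector arrays, these differences were not tested. How many of all kept probe sets had every untreated line below the empty vector was not counted. At 3 days untreated lines 17 and 20 were of the low 25S kind and the empty vector was of the high kind.

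The order of the group levels was as follows. For PRX52 the untreated empty vector stood first on both days, then the untreated lines at 6 days (mean 7.03 ± 1.05, SD, n = 3) and the treated lines at 6 days (6.59 ± 1.12, SD, n = 3), which overlapped, and the 6.49 of the treated empty vector at 6 days lay within both. The untreated lines at 3 days (6.13 ± 0.29) were next, within the range of the treated lines at 6 days, and the treated lines at 3 days (4.43 ± 0.18) were last, with no overlap with any other group. For CHI the untreated empty vector was followed by its own treated 6 day array, 9.63, and then the untreated lines at 6 days (9.44 ± 0.62), the treated lines at 6 days (9.09 ± 0.26) and both 3 day groups (8.52 ± 0.85 treated and 8.71 ± 0.73 untreated, SD, n = 3), and the 4 line groups overlapped.

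For OSM34 the untreated empty vector at 6 days, 13.58, was followed by the untreated lines at 6 days (13.24 ± 0.14), then by the untreated lines at 3 days (12.77 ± 0.28) and the treated lines at 6 days (12.70 ± 0.45, SD, n = 3), which overlapped. The treated lines at 3 days averaged 12.31 ± 0.30, and their range held the untreated empty vector at 3 days and both treated empty-vector arrays. For ADPG1 the treated lines at 3 days (7.10 ± 0.68) and the untreated lines at 6 days (6.99 ± 0.47) came first and overlapped with the treated lines at 6 days (6.56 ± 0.10) and the untreated lines at 3 days (6.53 ± 0.08, SD, n = 3). The untreated empty vector lay among them and the treated one below all.

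Between days, PRX52 was higher at 6 than at 3 days in every genotype and under both treatments. With estradiol it was 5.43 to 7.67 in the lines at 6 days, against 4.27 to 4.63 at 3 days, with no overlap, an arrangement found upward in 957 of 13701 kept probe sets (6.98%). The difference was 2.16 ± 0.56 (SE) and did not pass (limma adjusted p = 0.139), where 19 probe sets did (0.139%), 10 of them higher (0.073%), and 18.8% had an unadjusted p under 0.05. By line it was 1.03 in line 9, within the low 25S kind, and 3.04 and 2.41 in lines 17 and 20, where the kind of array changed with the day. Without line 9 the difference was 2.73 ± 0.31 (SE) and passed (limma adjusted p = 0.0104), as did 888 of 13701 probe sets there (6.48%), but in that fit the day and the kind of array cannot be told apart.

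Without estradiol the day difference of PRX52 in the lines was 0.90 ± 0.56 (SE; limma adjusted p = 0.742). No probe set passed there in limma (0%), and 928 had an unadjusted p under 0.05 (6.77%). Line 9, within the high 25S kind, contributed 2.44, and lines 17 and 20 contributed 0.21 and 0.06, so the mean rested on line 9 and was 0.14 ± 0.31 (SE) without it, and 0.49 ± 0.68 (SE) with the kind covariate. The groups, 6.39 to 8.24 at 6 days and 5.80 to 6.33 at 3 days, did not overlap, an arrangement found upward in 6.49% of kept probe sets. The empty vector gave a day difference of 0.31 with and 0.35 without estradiol.

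OSM34 without estradiol was 13.12 to 13.40 in the lines at 6 days, against 12.45 to 13.00 at 3 days. The groups did not overlap, as for 6.49% of kept probe sets upward, and the difference was 0.48 ± 0.25 (SE; limma adjusted p = 0.723). In lines 17 and 20 the kind of array changed with the day, and with the kind as a covariate the difference was 0.21 ± 0.27 (SE). In the untreated empty vector it was 1.23 and in the treated one 0.02, so its level with estradiol was nearly the same on both days. In the treated lines the day difference was 0.39 ± 0.25 (SE; limma adjusted p = 0.404), with -0.34 in line 9 and 0.79 and 0.71 in lines 17 and 20, and 0.12 ± 0.27 (SE) with the kind covariate.

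For CHI the day difference in the lines was 0.57 ± 0.47 with estradiol and 0.74 ± 0.47 without (SE; limma adjusted p = 0.52 and 0.744). With the kind of array as a covariate, which changed with the day in lines 17 and 20, these were 0.087 ± 0.54 and 0.25 ± 0.54 (SE). Line 20 gave the largest values, 1.72 and 1.26, and the empty vector gave 0.81 with and 0.26 without estradiol. For ADPG1 the day difference was -0.55 ± 0.31 with estradiol and 0.46 ± 0.31 without (SE; limma adjusted p = 0.357 and 0.748). The test of the estradiol effect at 6 days minus that at 3 days gave -1.0 ± 0.44 for ADPG1 (SE; limma adjusted p = 1; unadjusted p = 0.044) and 1.26 ± 0.80 for PRX52, -0.17 ± 0.67 for CHI and -0.09 ± 0.35 for OSM34 (SE; limma adjusted p = 1 for each). No probe set passed that test in limma (0%), and 234 had an unadjusted p under 0.05 (1.71%).

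Across arrays, the Pearson correlation of CHI and PRX52 was 0.82 over the 10 arrays of high 25S signal and -0.01 over the 6 of low signal, and 0.75 over all 16. OSM34 and ADPG1 correlated at 0.80 over the 10 arrays and 0.22 over the 6. CHI and ADPG1 correlated at 0.15 and 0.49, and PRX52 and OSM34 at 0.45 and 0.57. PRX52 and ADPG1 correlated at 0.33 and -0.51, and CHI and OSM34 at 0.28 and 0.51. Over all 16 arrays ADPG1 was at -0.05 with CHI, -0.17 with PRX52 and 0.45 with OSM34. OSM34 was at 0.49 with CHI and 0.59 with PRX52 there. The 10 arrays include the 4 empty-vector arrays that chose the genes for being lower together, so a correlation there follows in part from that choice. Arrays of a line share that line, and the difference between the 2 kinds was not tested.

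The probe sets with 1 listed gene whose levels were most like CHI over the 16 arrays included another chitinase. They were AT1G02360 (r = 0.872), a chitinase-family gene, AT1G65690 (0.869) and AT5G42830 (0.867). Over the 10 arrays of high 25S signal the values were 0.899, 0.753 and 0.798, and over the 6 of low signal 0.645, 0.798 and 0.857. In the empty vector AT1G02360 differed by -0.71 at 6 days and -0.91 at 3 days, AT1G65690 by -0.51 and -1.08, and AT5G42830 by -1.03 and -1.15.

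Most like PRX52 were Y14 (AT1G51510), an RNA-binding subunit of the exon junction complex (r = 0.878), AT5G42440 (0.877) and AT3G15430 (0.847). Of these AT5G42440 had 0.885 over the 10 arrays of high 25S signal, against 0.695 and 0.604 for Y14 and AT3G15430. Over the 6 arrays of low signal it had 0.424, against 0.852 and 0.772. The level of AT5G42440 was near the filter of 4, at 3.68 to 4.84. Most like OSM34 were AT2G15220 (r = 0.803), AT1G07040 (0.772) and GH3.17 (AT1G28130), of the family that joins amino acids to hormones (0.771). AT2G15220 differed by -2.14 at 6 days and -0.32 at 3 days in the empty vector, and OSM34 too had its larger difference at 6 days. This likeness follows in part from picking AT2G15220 on arrays that include those of the empty vector. The probe set of AT2G15220 has the suffix for probes shared by several transcripts. Most like ADPG1 were AT3G61540 (r = 0.781), AT1G01240 (0.766) and AT5G64500 (0.758), with empty-vector differences of -0.20, -0.23 and -0.12 at 6 days, far smaller than its own.

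Of 16 chitinase loci 11 were on a probe set listed with 1 gene and 9 were kept. In the lines over both days 1 of the 9 fell and 0 rose, where 0.628% of all kept probe sets fell and 2.22% rose. AT2G43590, from the run of neighbouring chitinase loci that also holds CHI, fell by 1.0 ± 0.17 (SE; limma adjusted p = 0.0202). The difference was -0.95 with the kind of array as a covariate (limma adjusted p = 0.0685), and -0.82 and -1.06 without lines 9 and 17 (limma adjusted p = 0.124 and 0.465). The call was also lost with no filter on low values (limma adjusted p = 0.0664). In the empty vector it was at -1.24 at 6 days and 0.35 at 3 days. The other 8 did not pass, from -2.13 ± 0.59 for AT2G43620 (SE; limma adjusted p = 0.073) to 1.35 ± 0.44 for AT2G43600 (SE; limma adjusted p = 0.104). The median over the 9 was -0.27, against 0.03 over all kept probe sets.

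In the empty vector 6 of the 8 chitinases other than CHI had a mean difference below 0, against 40.5% of all kept probe sets, and their median was -0.48, against 0.035. On both days below 0 were 2 of the 8, AT2G43620 and AT1G02360, against 18.5% of all kept probe sets. AT2G43620 was at -0.76 at 6 days and -1.43 at 3 days, and AT2G43600 lay highest at 1.02 and 0.54, followed by AT2G43610 with a mean of 0.03. Of the kept chitinases beside CHI on the chromosome, AT2G43620 and AT2G43590 thus shared its sign, with means of -1.095 and -0.445. AT2G43610 differed in sign between the days, at -0.14 at 6 days and 0.2 at 3 days. Only AT2G43600 was higher on both days. Its log2 level ran from 2.44 to 6.53 over all arrays, so its lowest values lay below the filter of 4.

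Of 72 class III peroxidase loci 55 were on a probe set listed with 1 gene and 37 were kept. In the lines over both days 1 of the 37 rose and 0 fell, a share near the 2.22% of all kept probe sets that rose. AT5G06730 rose by 1.83 ± 0.34 (SE; limma adjusted p = 0.0251). The call was lost in several alternatives, while the difference stayed at 1.5 to 2.04. It was 1.76 with the kind of array as a covariate (limma adjusted p = 0.0896) and 1.95, 1.5 and 2.04 without lines 9, 17 and 20 (limma adjusted p = 0.106, 0.465 and 0.0604), and the adjusted p was 0.0892 with no filter. The log2 level of AT5G06730 ran from 2.81 to 6.39 over all arrays, so its lowest values lay below the filter of 4. Its difference in the empty vector was 0.03. The median over the 37 was 0.21 in the lines, against 0.03 over all kept probe sets. Of the 36 peroxidases other than PRX52, 16 lay below 0 in the empty vector, against 40.5% of all kept probe sets, with a median of 0.03. PRX52 stood lowest of the family, followed by AT5G64110 at -1.08, and AT4G11290 (0.57) and AT3G49960 (0.47) stood highest.

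Of 20 osmotin and thaumatin-like loci 16 were on a probe set listed with 1 gene. Of these 9 were kept and none passed in the lines over both days in limma. The smallest p belonged to AT1G75800, at -1.55 ± 0.38, and AT4G38660, at -1.25 ± 0.34 (SE; limma adjusted p = 0.056 and 0.0696). Without line 9 they were -0.81 and -0.93, and with the kind covariate -1.01 and -0.90. With the line as a block AT4G38660 had limma adjusted p = 0.0423. Both lay near 0 in the empty vector, at -0.05 and -0.07, and 4 of the 8 other than OSM34 were below 0, with a median of -0.02. The lowest beside OSM34 was ATLP-1 (AT1G18250) at -0.23, and the highest were AT5G40020 (0.56) and AT1G73620 (0.22).

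Of 14 polygalacturonase loci 10 were on a probe set listed with 1 gene. Of these 6 were kept and none passed in the lines in limma. The smallest p belonged to AT3G62110, at -0.46 ± 0.17, and AT1G80170, at 0.45 ± 0.35 (SE; limma adjusted p = 0.135 and 0.419). Without line 9 AT1G80170 was at -0.085 ± 0.12 (SE). Of the 5 other than ADPG1, 4 lay below 0 in the empty vector, with a median of -0.21. AT1G60590 was the lowest of these at -0.78, and AT3G62110 and AT1G19170 were highest at 0.01 and -0.02.

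**Figure D4:**
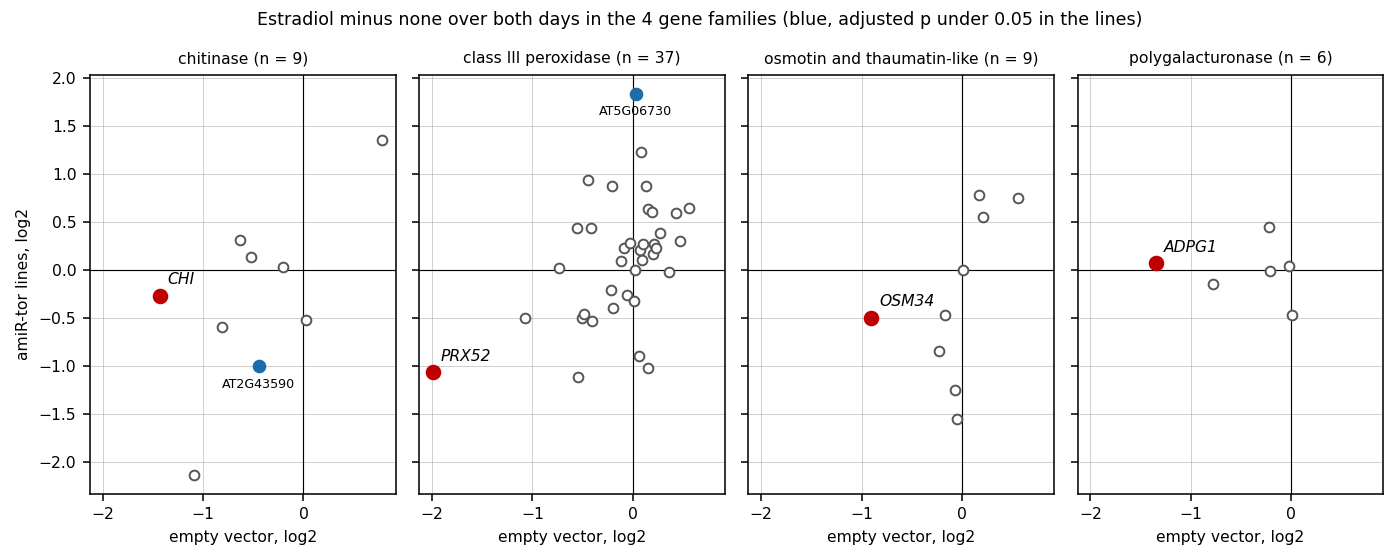
Estradiol minus none over both days on the log2 scale in the empty vector (x axis, mean of 2 pairs) and in the amiR-tor lines (y axis, mean of 6 pairs), for the kept genes of 4 families. Each of the 4 genes (red) is the lowest of its family in the empty vector, the contrast that chose them, and the genes in blue passed in the lines, AT2G43590 lower and AT5G06730 higher.

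Of 16 jasmonate and ethylene defence loci 4 were on a probe set listed with 1 gene, and all 4 were kept, OSM34 among them. The other 3 are PDF1.2 and PDF1.2b, antimicrobial defensins, and THI2.1, an antimicrobial thionin, and all 3 were below 0 on both days in the empty vector, as were 18.5% of all kept probe sets. THI2.1 was at -2.06 at 6 days and -0.66 at 3 days, PDF1.2b at -0.96 and -0.51, and PDF1.2 at -0.10 and -0.85. In the lines over both days none of the 4 passed in limma, and the values of these 3 were above 0, such as 1.2 ± 0.95 for THI2.1 (SE; limma adjusted p = 0.429). Its 6 pairs ran widely, between -3.1 and 5.52, and the mean was 0.37 without line 9 and 2.39 without line 20. The probe set of PDF1.2b has the suffix for probes that can bind related transcripts, so the defensins may not be read separately. Both were named after their values were seen.

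Of the 15 salicylate and camalexin loci only WRKY53, a transcription factor gene, was on a probe set listed with 1 gene, and it was kept. The other loci of this list, and of the lignin and root lists below, were lost to the annotation and not to the filter on low values. It was at -0.20 at 6 days and -1.07 at 3 days in the empty vector, and at -0.22 ± 0.27 in the lines over both days (SE; limma adjusted p = 0.619). Of 16 lignin loci only HCT was kept, at -0.07 in the empty vector and -0.31 ± 0.13 in the lines (SE; limma adjusted p = 0.171). Of 7 root markers PYK10 was kept, at -0.05 in the empty vector and -0.20 ± 0.11 in the lines (SE; limma adjusted p = 0.252). None of the 6 leaf markers or the 6 flower and fruit markers was on a named probe set, so the share of organs in the seedlings was not assessed beyond PYK10.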

How the data were processed

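The submitters' processing notes name GCRMA, a method that subtracts background by probe sequence and puts arrays on 1 scale, as the source of the deposited log2 values. Its version is not given in the sources used here. Values ran from a floor of 2.12 to 15.32 and were not normalized again. The 64 controls were not tested, nor were 9045 dim probe sets that stayed below 4 (log2) on all but at most 2 arrays.

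In the platform annotation 13513 of the 22746 probe sets have 1 gene and 503 have several, and it lists no gene for 8730. Loci and symbols came from the RefSeq gene table of TAIR10.1. No coordinates are given, since the array's build is not stated. Where a gene had several probe sets, the one with the highest mean was used.

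All 16 arrays entered 1 limma fit (version 3.58.1, under R 4.3.3; 1 mean per group, 8 residual degrees of freedom, moderated by eBayes), with Benjamini-Hochberg adjustment over the 13701 kept probe sets and a threshold of 0.05. The fit was tested on simulated data. The members and gene lists were chosen with earlier results of these data known. In each list the genes named are those past the threshold, or the 2 with the smallest p, and in each family also the 2 highest and 2 lowest in the empty vector. For each of the 4 genes the 3 most correlated probe sets with 1 gene were named.

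The lines pair the arrays, since each line gave a treated and an untreated array on each day. After subtracting group means, arrays of a line correlated at -0.63 to 0.45 for line 9, -0.16 to 0.17 for line 17 and -0.15 to 0.52 for line 20. The most similar pair of arrays (r = 0.992) had 4.48% identical values, so none was a copy. Alternatives were the filter, quantile normalization, median centring, the line as a block, the kind of array as a covariate, the amiR-tor arrays alone, a trended robust prior, and each line left out. Fits within 1 kind of array were added after seeing the data.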

Additional observations from a re-analysis of the deposited data

Results flagged for a closer look

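CHI moved in opposite directions in line 9 and line 17 on both days. Estradiol minus none was -1.35 at 6 days and -0.51 at 3 days in line 9, whose pairs cross the 2 kinds of array, and 0.22 and 0.34 in line 17, whose pairs do not. The test over the 3 lines gave limma adjusted p = 0.466. CHI also moved oppositely in line 17, at 0.22 and 0.34, and the empty vector, at -1.16 and -1.71. That difference was not tested, since the empty vector chose the gene.

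ADPG1 was lower with estradiol in every line at 6 days, by values of -0.33, -0.89 and -0.08 in lines 9, 17 and 20, and higher in every line at 3 days, by 1.38, 0.31 and 0.02. The difference of the effect between days was -1.0 ± 0.44 (SE; limma adjusted p = 1). At 3 days the lines, at 1.38, 0.31 and 0.02, also went against the empty vector, at -1.18, a difference that was not tested.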

How the results depend on the processing

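The differences of the 4 genes in the lines were recomputed 152 times under settings that can move them (lines left out, rescaling, the kind covariate, 1 kind of array), of which 142 kept their sign, 10 did not, and 1 newly passed. The cause of the exceptions was not tested. With the kind of array as a covariate CHI at 3 days was 0.0583, and within the low 25S arrays, which lack the untreated line 9, it was 0.153. Within the high 25S arrays, which lack the treated line 9, PRX52 at 6 days was 0.145. Leaving out 1 line in turn gave -0.635 to 0.15 for CHI and -1.26 to 0.75 for PRX52 at 6 days, -0.54 to 0.065 for CHI and -0.16 to 0.248 for ADPG1 over both days, and -0.085 to 0.728 for AT1G80170. For the day difference of the effect it gave -0.48 to 0.17 for CHI and -0.425 to 0.31 for OSM34, and between days with estradiol -0.005 to 0.89 for CHI and 1.72 to 2.73 for PRX52, past the threshold without line 9.

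Probe sets called numbered 63 at 6 days, and 8 with no filter, 30 with the kind covariate and 1 to 55 with a line left out. Over both days the 390 became 88 with no filter, 61 with the kind covariate, 571 with the line as a block, 445 with the trended prior and 1 to 379 with a line left out. At 3 days the 0 became 4 with no filter, 1 with the stricter filter and 1 with the trended prior. Between days with estradiol the 19 became 12 with the line as a replicate block, 4 with the kind covariate and 0 to 888 with a line left out, and without estradiol the 0 became 1 with the covariate and 0 to 310. Line differences were 33 with no filter, 11 with the covariate and 2 without line 9. The block changed no call of the 4 genes. Over both days it gave -0.50 ± 0.16 (SE) for OSM34, with limma adjusted p = 0.101. The empty-vector differences kept their sign under both rescalings. With 1 empty-vector array per condition none could be left out. The few arrays, not a read depth, set the precision.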
